A study of Mus musculus with 12 samples.

Results

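Th9 cells are made in culture from naive CD4+ T cells by IL-4 together with TGF-β, so the machinery that receives the TGF-β signal is part of what defines them. The RNA levels of 10 genes of this pathway, *Tgfb1*, *Tgfbr1*, *Tgfbr2*, *Smad2*, *Smad3*, *Smad4*, *Smad7*, *Ski*, *Skil*, and *Smurf2*, were followed in mouse Th9 cells treated with the fungal cyclolipopeptide EpA, the SREBP inhibitor fatostatin, or both. The genes were chosen by symbol as the core of the pathway, with earlier results of these data known. They are 10 of the 32051 genes in the deposited values. All 10 were well expressed, with 930 to 13543 reads per library, and all 10 passed the filter on low values, which kept 13733 genes.

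Naive CD4+ T cells from spleens of C57BL/6J mice were cultured in Th9-polarizing conditions with added IL-4 (10 ng/mL) and TGF-β (1 ng/mL), with antibodies to CD3 and CD28 and blocking antibodies to IL-12 and IFN-γ, and RNA was collected on day 4. The 4 groups of 3 libraries received the vehicle DMSO, 10 μM EpA with no fatostatin, DMSO with 5 μM fatostatin, or 10 μM EpA with 5 μM fatostatin (labeled DMSO, EpA, DMSO+fato, and EpA+fato). Every group, the DMSO controls included, was exposed to added TGF-β, so no library shows the pathway without its ligand. The labels give the strain and name no transgene or deletion, and the study used animals of 6 to 8 weeks. The paper calls the Th9 samples of its RNA-seq independent. Neither it nor the labels say whether replicates came from separate mice or cultures. The p-values therefore measure only the spread between these libraries, which may be technical.

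Active TGF-β binds a complex of the type II receptor TGFBR2 and the type I receptor TGFBR1, and the type I receptor kinase phosphorylates SMAD2 and SMAD3. These join SMAD4 and move to the nucleus, where they act on genes together with other factors. SMAD7 blocks the receptor, SKI and SnoN (encoded by *Skil*) repress transcription at SMAD-bound genes, and SMURF2 is a ubiquitin ligase that marks receptors and SMAD proteins for degradation. *Smad7* and *Skil* are themselves commonly induced by the signal, which makes their RNA a frequent readout of it.

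Between 36607303 and 44375791 reads per library fell on genes. Of 8 T cell markers, 7 had values, and they summed to 500 to 604 FPKM (fragments per kilobase of exon scaled to library size, a level corrected for gene length and depth) in the 12 libraries, at 577 to 604 FPKM without EpA and 500 to 526 FPKM with it. *Cd4* was at 78.1 to 92.2 FPKM and was higher with EpA, whereas *Cd28* was at 29.1 to 38.2 FPKM without EpA and 19.8 to 26.3 FPKM with it. Markers of macrophages and monocytes summed to at most 0.575 FPKM. The 6 B cell markers summed to 52.1 to 53.7 FPKM in the libraries without EpA and to 26.9 to 29.6 FPKM in those with EpA, most of it *Ighm* (43.6 to 46.6 FPKM without and 20.1 to 23.5 FPKM with EpA). *Cd79b* and *Cd79a*, which encode the B cell receptor's signaling chains, were at 4.66 to 7.43 and 0.397 to 0.982 FPKM, whereas the B cell genes *Ms4a1* and *Pax5* lay at or below 0.0731 FPKM in every library. In bulk RNA, fewer cells of a type and less RNA per cell cannot be told apart.

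The ligand gene *Tgfb1* (ENSMUSG00000002603, GRCm38 chromosome 7, from 25687002 to 25705077) had the highest level of the 10 genes in all 4 groups. Its level was 61.2, 59.4, and 61.8 FPKM in the DMSO libraries, 56.4, 54.1, and 58.5 FPKM with EpA, 54.3, 55.8, and 56.0 FPKM with fatostatin, and 51.0, 53.6, and 55.3 FPKM with both compounds. The DMSO libraries lay above all 9 others, and the 3 treated groups overlapped one another. The group means were 60.8 ± 1.25, 56.3 ± 2.19, 55.4 ± 0.909, and 53.3 ± 2.20 FPKM (SD, n = 3 each). Against DMSO, *Tgfb1* fell by 0.11 on the log2 scale with EpA (SE 0.0340, limma adjusted p = 0.0330), by 0.13 with fatostatin (SE 0.0340, adjusted p = 0.0220), and by 0.19 with both (SE 0.0340, adjusted p = 0.00114). The call for EpA was lost without DMSO replicate 1 or 3 or EpA replicate 1 or 2 (adjusted p 0.0751 to 0.125), and that for fatostatin without DMSO replicate 1 or 3 or DMSO+fato replicate 1 (adjusted p 0.0713 to 0.0802). These comparisons share the DMSO libraries, and the levels reported are of RNA made by the cells, not of the TGF-β added to the culture.

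**Figure D1:**
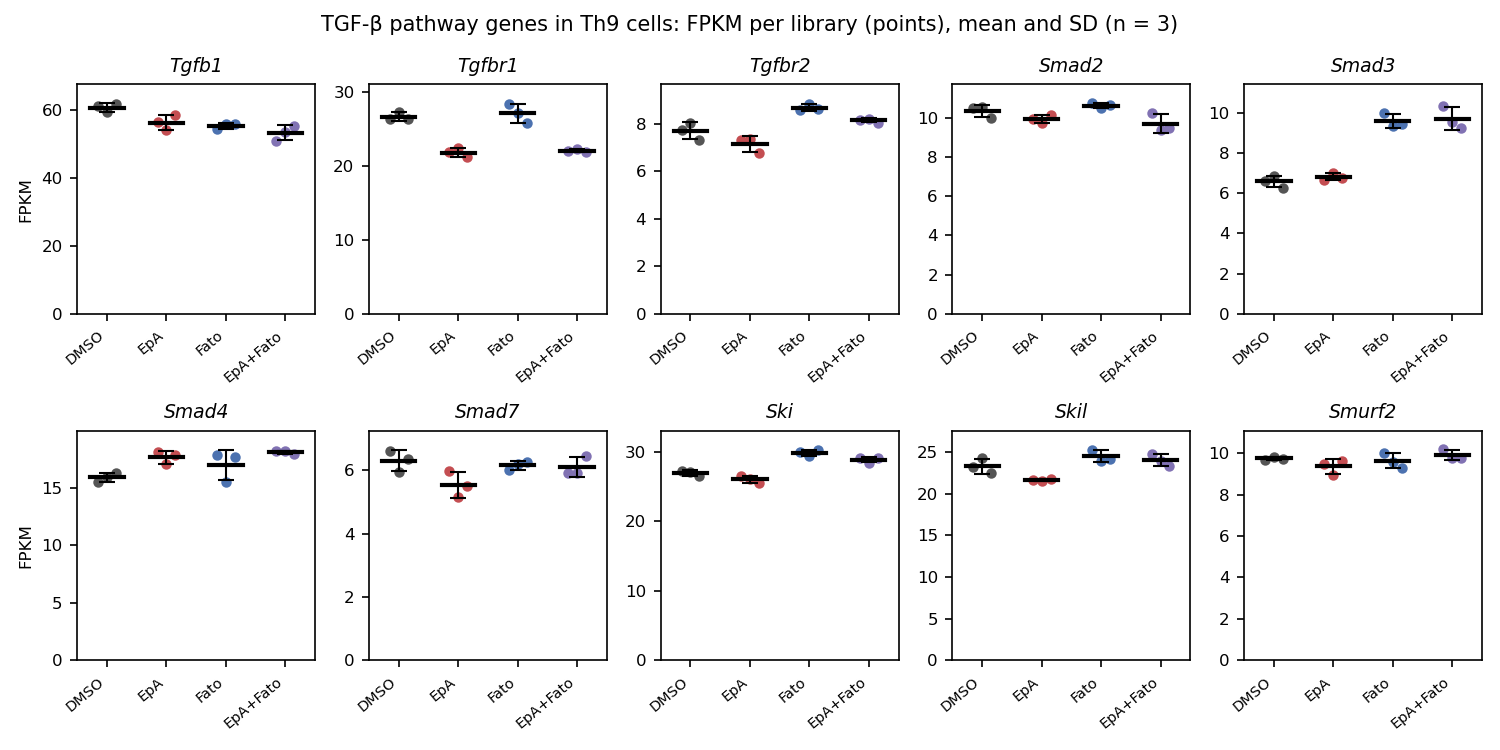
Level of each of the 10 pathway genes in FPKM (vertical axes, each starting at 0) in the 4 groups, with 1 point per library and black lines for the mean and SD of 3 libraries. *Tgfbr1* is lower in both groups with EpA, and *Smad3* and *Ski* are higher in both groups with fatostatin.

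*Tgfbr1* (ENSMUSG00000007613, chromosome 4, from 47353222 to 47414931), encoding the type I receptor kinase, measured 26.4, 27.4, and 26.4 FPKM in DMSO and 21.9, 22.4, and 21.2 FPKM in EpA libraries. It measured 28.4, 27.1, and 25.9 FPKM with fatostatin alone and 22.1, 22.3, and 21.9 FPKM with both compounds. All 6 libraries with EpA (21.2 to 22.4 FPKM) thus lay below all 6 without it (25.9 to 28.4 FPKM). EpA lowered *Tgfbr1* by 0.29 on the log2 scale without fatostatin (SE 0.0330, limma adjusted p = 6.61e-05) and by 0.30 with it (SE 0.0330, adjusted p = 5.25e-05), to 0.818 and 0.815 times the level. The difference between these effects was -0.0045 (95% interval -0.107 to 0.0981). With fatostatin, the change of *Tgfbr1* was 0.02 (95% interval -0.0502 to 0.0949, adjusted p = 0.731) without EpA and 0.02 (95% interval -0.0547 to 0.0904, adjusted p = 0.778) with it. Both calls for EpA held when any 1 of the 12 libraries was left out. The T cell and B cell marker sums given above were lower with EpA in the same libraries, and their part in the fall of *Tgfbr1* was not tested.

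*Tgfbr2* (ENSMUSG00000032440, chromosome 9, from 116084293 to 116175360), encoding the ligand-binding type II receptor, rose with fatostatin. Its level was 7.72, 8.04, and 7.33 FPKM in DMSO, 7.31, 7.35, and 6.74 FPKM in EpA, 8.58, 8.83, and 8.61 FPKM in fatostatin, and 8.17, 8.21, and 8.04 FPKM in the libraries with both compounds. The 6 libraries with fatostatin (8.04 to 8.83 FPKM) did not overlap the 6 without it (6.74 to 8.04 FPKM), although the 2 sets nearly touched. The change with fatostatin was 0.17 on the log2 scale without EpA (SE 0.0419, limma adjusted p = 0.0184) and 0.19 with it (SE 0.0419, adjusted p = 0.00989). The first of these calls was lost without DMSO replicate 1 or 3 or DMSO+fato replicate 2 (adjusted p 0.0511 to 0.0738). With EpA the changes were -0.11 without fatostatin (adjusted p = 0.0791) and -0.09 with it (adjusted p = 0.133), neither past the threshold, though without DMSO replicate 3 the former had an adjusted p of 0.0372.

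The ratio of *Tgfbr1* to *Tgfbr2*, a comparison of levels per length chosen after the values were seen and not tested, was 3.47 ± 0.112 in DMSO, 3.06 ± 0.0775 in EpA, 3.13 ± 0.159 in fatostatin, and 2.71 ± 0.0115 in libraries with both compounds (SD, n = 3 each). The ratios were lowest where both compounds were present (2.70 to 2.73) and highest in DMSO (3.40 to 3.60), and those of the single compounds overlapped each other.

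The sequences before the transcription starts of the receptor genes are shown because the fall of *Tgfbr1* with EpA and the rise of *Tgfbr2* with fatostatin are the receptor results. RefSeq windows of GRCm38.p6 were searched on both strands for CAGAC, a core of SMAD-binding elements, for the palindromic element GTCTAGAC, for the sterol element TCACNCCAC and the E-box CACGTG, which SREBP proteins can bind, and for GGGCGG, the GC box. The 250 bases before the start are given for each gene on its own strand, *Tgfbr1* from chr4:47352972-47353221 on the plus strand and *Tgfbr2* from chr9:116175364-116175613 on the minus strand, with matches to GGGCGG or CAGAC in capitals.
Tgfbr1: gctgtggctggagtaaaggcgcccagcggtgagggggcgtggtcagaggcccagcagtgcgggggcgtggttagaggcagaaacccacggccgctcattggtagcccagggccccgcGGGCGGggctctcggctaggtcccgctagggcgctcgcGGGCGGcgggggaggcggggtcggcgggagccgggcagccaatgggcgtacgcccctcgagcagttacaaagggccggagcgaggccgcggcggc
Tgfbr2: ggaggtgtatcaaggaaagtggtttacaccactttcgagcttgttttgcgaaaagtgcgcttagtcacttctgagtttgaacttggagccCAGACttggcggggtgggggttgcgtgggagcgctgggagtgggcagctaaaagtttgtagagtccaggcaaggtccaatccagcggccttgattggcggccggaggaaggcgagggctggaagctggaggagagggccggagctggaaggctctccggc
The *Tgfbr1* sequence had GGGCGG at 133 and 95 bases before the start, and the *Tgfbr2* sequence had CAGAC at 160 bases before it. Of 32851 promoter windows of 300 bases (250 before to 50 after the start), 35.7% held GGGCGG and 49.6% held CAGAC, so that either match was common. A second RefSeq start of *Tgfbr1*, 52.0% GC against 74.7% for the first, had 1 CAGAC and no GGGCGG.

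*Smad3* (ENSMUSG00000032402, chromosome 9, from 63646767 to 63757994), 1 of the 2 SMAD genes whose products the receptor kinase activates, had the largest difference of the 10 genes in size in every comparison of libraries with and without fatostatin. It measured 6.62, 6.85, and 6.27 FPKM in DMSO, 6.67, 7.02, and 6.77 FPKM in EpA, 10.0, 9.34, and 9.43 FPKM in fatostatin, and 10.4, 9.52, and 9.23 FPKM in libraries with both compounds. The 6 libraries with fatostatin (9.23 to 10.4 FPKM) were all above the 6 without it (6.27 to 7.02 FPKM), and the groups with and without EpA overlapped within each. Fatostatin raised *Smad3* by 0.54 on the log2 scale, or 1.45-fold, without EpA (SE 0.0492, limma adjusted p = 2.50e-05) and by 0.50, or 1.42-fold, with it (SE 0.0492, adjusted p = 3.91e-05). Both calls held when any 1 library was left out. The change with EpA was 0.05 without fatostatin (95% interval -0.0569 to 0.159, adjusted p = 0.496) and 0.02 with it (95% interval -0.093 to 0.123, adjusted p = 0.860).

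*Smad2* (ENSMUSG00000024563, chromosome 18, from 76241580 to 76310963), encoding the close relative of SMAD3, stayed between 9.37 and 10.7 FPKM. The group means were 10.3 ± 0.308 FPKM in DMSO, 9.93 ± 0.191 FPKM in EpA, 10.6 ± 0.131 FPKM in fatostatin, and 9.70 ± 0.478 FPKM in libraries with both compounds (SD, n = 3 each). Of the comparisons, *Smad2* passed the threshold for both compounds against fatostatin, where the libraries measured 10.3, 9.37, and 9.48 FPKM against 10.7, 10.5, and 10.7 FPKM. It fell by 0.13 on the log2 scale (SE 0.0374, limma adjusted p = 0.0219), a call lost without DMSO+fato replicate 1 or 3 or EpA+fato replicate 2 or 3 (adjusted p 0.0585 to 0.0839). For both compounds against DMSO the change was -0.09 (adjusted p = 0.0776), and the adjusted p was 0.0121 without EpA+fato replicate 1 and 0.0453 with voom on the recovered reads. With fatostatin the change of *Smad2* was 0.04 (95% interval -0.0446 to 0.120) without EpA and -0.03 (95% interval -0.117 to 0.0477) with it.

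The FPKM ratio of *Smad3* to *Smad2*, again chosen after the values were seen and not tested, was 0.636 ± 0.0113 in DMSO and 0.687 ± 0.0289 in EpA libraries. It was 0.903 ± 0.0258 with fatostatin and 1.00 ± 0.0231 with both compounds (SD, n = 3 each), so the RNA of the 2 genes was about level per length in the last group, and the libraries with fatostatin (0.885 to 1.016) did not overlap those without it (0.628 to 0.720).

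**Figure D2:**
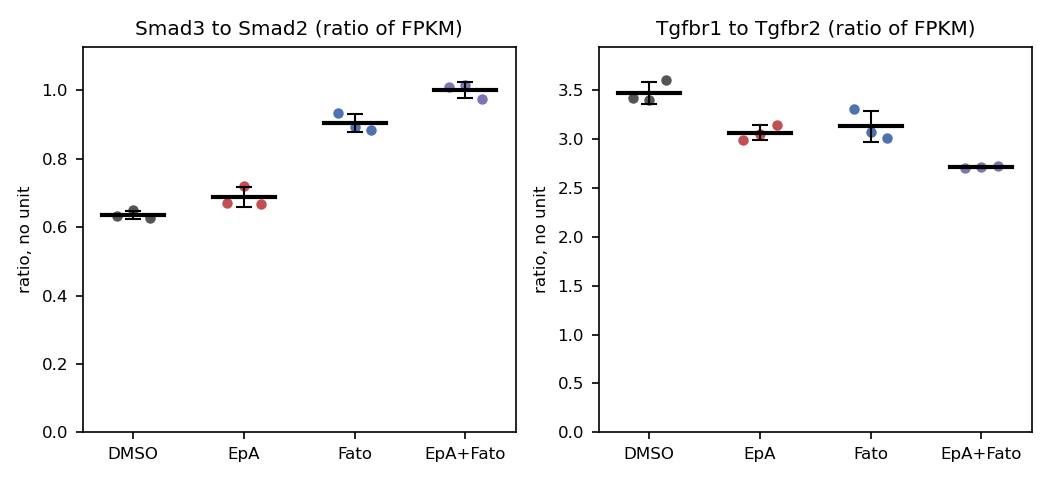
Ratio of FPKM values (vertical axes, no unit, starting at 0) of *Smad3* to *Smad2* (left) and *Tgfbr1* to *Tgfbr2* (right) in the 4 groups, with 1 point per library and lines for the mean and SD of 3. The left ratio is 0.885 to 1.016 in the libraries with fatostatin, and the right ratio is lowest, 2.70 to 2.73, in those with both compounds.

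The 250 bases before the start of *Smad3*, the member with the largest change, are given from chr9:63757995-63758244 of GRCm38.p6 on the minus strand, with the same capitals.
Smad3: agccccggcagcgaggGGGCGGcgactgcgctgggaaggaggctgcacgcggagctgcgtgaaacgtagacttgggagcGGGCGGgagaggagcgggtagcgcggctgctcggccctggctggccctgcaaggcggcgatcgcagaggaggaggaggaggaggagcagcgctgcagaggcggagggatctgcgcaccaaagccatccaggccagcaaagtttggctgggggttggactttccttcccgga
It had GGGCGG at 234 and 171 bases before the start. In the windows of 300 bases, *Smad3* and *Ski* held no CAGAC, and GGGCGG occurred 2 times for *Smad3*, 6 times for *Ski*, and 0 times for *Tgfbr2*, the 3 genes that rose with fatostatin. It occurred 6 times for *Tgfb1*, which fell with fatostatin, and 9 times for *Smurf2*, which passed in no comparison. RefSeq windows were at hand for 6 of the 10 genes (*Tgfb1*, *Tgfbr1*, *Tgfbr2*, *Smad3*, *Ski*, and *Smurf2*). None of them held TCACNCCAC, CACGTG, or GTCTAGAC, which occurred in 1.24%, 7.15%, and 0.213% of all windows. A missing match says only that these letters are not in the window.

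*Smad4* (ENSMUSG00000024515, chromosome 18, from 73639009 to 73703780), encoding the SMAD shared by the whole superfamily, measured 15.5, 16.0, and 16.3 FPKM in DMSO and 18.1, 17.0, and 17.9 FPKM in EpA libraries. The levels were 17.9, 15.5, and 17.6 FPKM with fatostatin and 18.2, 18.2, and 17.9 FPKM with both compounds. The DMSO libraries lay below both groups with EpA, and 1 of the 3 fatostatin libraries lay at the level of the lowest DMSO library. *Smad4* rose by 0.15 on the log2 scale with EpA (SE 0.0479, limma adjusted p = 0.0381) and by 0.18 with both compounds against DMSO (SE 0.0479, adjusted p = 0.0109). The call for EpA was lost without DMSO replicate 1, 2, or 3, EpA replicate 1 or 3, or EpA+fato replicate 2 or 3 (adjusted p 0.0503 to 0.118). With fatostatin the change was 0.09 (adjusted p = 0.253), and without DMSO+fato replicate 2, the low library, it was 0.16 (adjusted p = 0.0107).

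*Smad7* (ENSMUSG00000025880, chromosome 18, from 75367529 to 75395935), the inhibitory SMAD, had the lowest mean level of the 10 genes in every group. It measured 6.60, 5.94, and 6.36 FPKM in DMSO, 5.98, 5.16, and 5.51 FPKM in EpA, 6.00, 6.22, and 6.25 FPKM in fatostatin, and 5.91, 5.93, and 6.46 FPKM in libraries with both compounds. The ranges of DMSO and EpA overlapped. The change with EpA was -0.18 on the log2 scale (SE 0.0590, limma adjusted p = 0.0410), a call lost without DMSO replicate 1 or 3, EpA replicate 2 or 3, DMSO+fato replicate 2 or 3, or EpA+fato replicate 2 (adjusted p 0.0501 to 0.149). In the presence of fatostatin the change with EpA was -0.01 (95% interval -0.144 to 0.116), and the difference between the EpA effects, 0.17 (95% interval -0.0162 to 0.351, unadjusted p from limma = 0.0700, adjusted p = 0.681), was not past the threshold.

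Both corepressor genes had higher mean levels with fatostatin. *Ski* (ENSMUSG00000029050, chromosome 4, from 155154075 to 155222592) measured 27.3, 27.1, and 26.5 FPKM in DMSO, 26.4, 26.1, and 25.5 FPKM in EpA, 29.9, 29.3, and 30.2 FPKM in fatostatin, and 29.1, 28.4, and 29.1 FPKM in libraries with both compounds. All 6 libraries with fatostatin (28.4 to 30.2 FPKM) lay above all 6 without it (25.5 to 27.3 FPKM). The rise was 0.15 on the log2 scale without EpA (SE 0.0217, limma adjusted p = 0.000877) and 0.15 with it (SE 0.0217, adjusted p = 0.000753), or 1.11-fold in each case, and both calls held when any 1 library was left out. With EpA, *Ski* changed by -0.05 both without fatostatin (adjusted p = 0.111) and with it (adjusted p = 0.126).

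*Skil* (ENSMUSG00000027660, chromosome 3, from 31095058 to 31122577), which encodes SnoN, measured 23.2, 24.2, and 22.4 FPKM in DMSO and 21.6, 21.5, and 21.8 FPKM in EpA libraries. With fatostatin it measured 25.3, 24.0, and 24.2 FPKM, and with both compounds 24.8, 24.0, and 23.4 FPKM. The EpA libraries were below the other 9. *Skil* fell by 0.10 on the log2 scale with EpA (SE 0.0328, limma adjusted p = 0.0348), a call lost without DMSO replicate 1 or 2 or any 1 of the EpA replicates (adjusted p 0.0655 to 0.130), and rose by 0.15 with fatostatin added to EpA (SE 0.0328, adjusted p = 0.00933), a call that held without any 1 library. Without EpA, the change with fatostatin was 0.07 (95% interval -0.00098 to 0.143, adjusted p = 0.193), and the difference between the 2 fatostatin effects, which equals that between the EpA effects, was 0.08 (95% interval -0.0233 to 0.180).

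*Smurf2* (ENSMUSG00000018363, chromosome 11, from 106820066 to 106920715) was the 1 member that passed in none of the comparisons of 2 groups. Its group means were 9.74 ± 0.0636 FPKM in DMSO, 9.36 ± 0.354 FPKM in EpA, 9.63 ± 0.369 FPKM in fatostatin, and 9.91 ± 0.235 FPKM in libraries with both compounds (SD, n = 3 each), and the 12 libraries ranged from 8.96 to 10.2 FPKM. Its largest change was 0.08 for both compounds against EpA (95% interval 0.00204 to 0.164, limma adjusted p = 0.163). A miRNA gene on the same strand overlaps 58 bases of its exons, 0.941% of their length. No exon of the other 9 genes overlapped an exon of another gene.

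Counted together, 5 of the 10 genes passed the threshold for EpA against DMSO, 1 higher (*Smad4*) and 4 lower (*Tgfb1*, *Tgfbr1*, *Smad7*, and *Skil*), where 27.4% of all tested genes passed (14.3% higher and 13.1% lower). For fatostatin against DMSO 4 passed, *Tgfbr2*, *Smad3*, and *Ski* higher and *Tgfb1* lower, against 14.0% of all genes (7.69% higher and 6.31% lower). Fatostatin added to EpA gave 4 that passed, all higher (*Tgfbr2*, *Smad3*, *Ski*, and *Skil*), against 16.0% of all genes (9.22% higher and 6.79% lower). EpA added to fatostatin gave 2, both lower (*Tgfbr1* and *Smad2*), against 29.5% (16.2% higher and 13.3% lower). For both compounds against DMSO 5 passed, *Smad3*, *Smad4*, and *Ski* higher and *Tgfb1* and *Tgfbr1* lower, against 35.5% (19.7% higher and 15.8% lower). With only 10 genes, chosen for what they do and with earlier results of these data known, these counts are a description. They rest on small changes: 0 of the 10 reached a fold change of 1.5 in any comparison, where 3.38%, 1.86%, 1.99%, 3.75%, and 5.64% of all genes did so past the same threshold in the order given. The count for EpA against DMSO rests on calls near the threshold and was 1 to 5 when 1 library was left out, with *Tgfbr1* the call that held throughout.

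In the test of whether the effect of EpA differed with and without fatostatin, 0 of the 10 genes passed in limma, where 0.0437% of all genes did. None had an unadjusted p below 0.05, as 7.89% of all genes had. The differences ran from -0.07 (*Smad2*) to 0.17 (*Smad7*) on the log2 scale, and their 95% intervals stayed within -0.206 and 0.351. *Tgfbr1* was thus the gene that passed in the same direction for EpA in both backgrounds, and *Tgfbr2*, *Smad3*, and *Ski* were those for fatostatin.

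**Figure D3:**
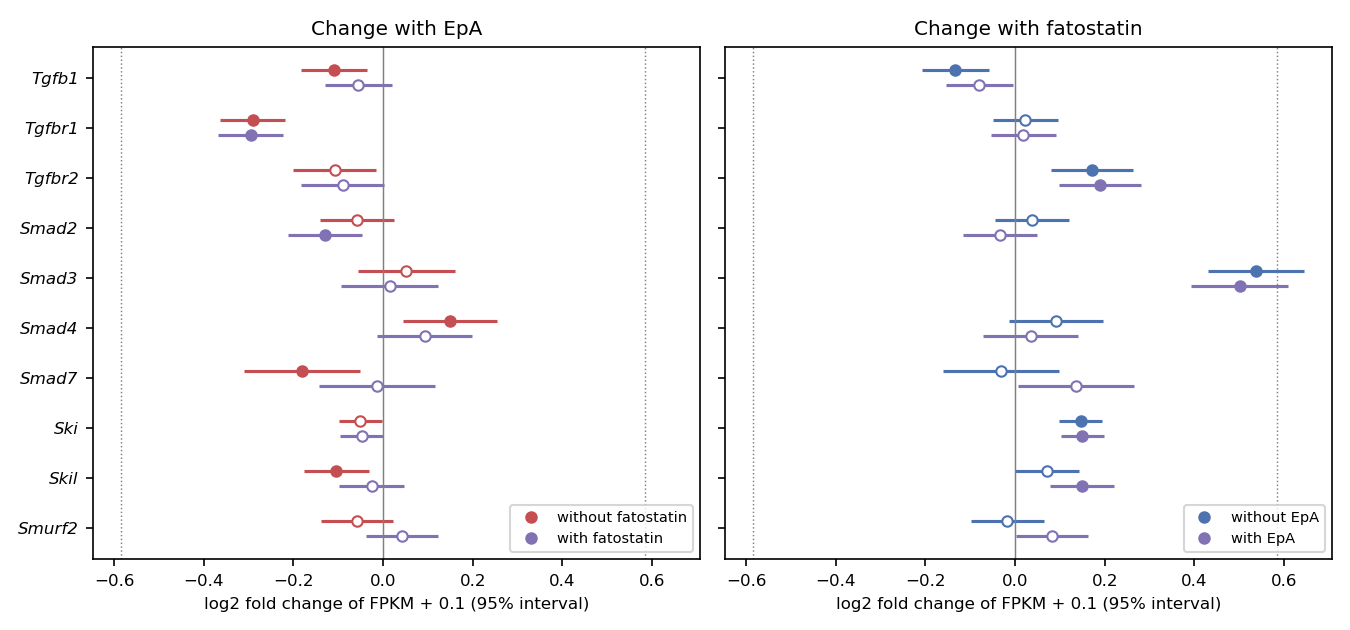
Log2 fold change (horizontal axes) of the 10 genes with EpA (left) and with fatostatin (right), each in the absence and presence of the other compound. Points are limma estimates, lines 95% intervals, filled points have an adjusted p below 0.05, and dotted lines mark a fold change of 1.5. *Tgfbr1* with EpA (-0.29 and -0.30) and *Smad3* with fatostatin (0.54 and 0.50) stand farthest from 0.

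The order of the mean levels, per exon length, began with *Tgfb1* and *Ski* and ended with *Smad7* in all 4 groups. In DMSO it ran from *Tgfb1* through *Ski*, *Tgfbr1*, *Skil*, *Smad4*, *Smad2*, *Smurf2*, *Tgfbr2*, and *Smad3* to *Smad7*, and of the neighbors in this order, *Ski* and *Tgfbr1*, and *Smad3* and *Smad7*, had overlapping libraries. With EpA, *Tgfbr1* overlapped *Skil* instead, and *Tgfbr2* overlapped *Smad3*. With fatostatin alone, *Smad3* (9.34 to 10.0 FPKM) lay above *Tgfbr2* (8.58 to 8.83 FPKM) without overlap, and it overlapped *Smurf2*. With both compounds, *Skil* lay above *Tgfbr1* without overlap, and *Smurf2*, *Smad3*, and *Smad2* (9.91, 9.70, and 9.70 FPKM on average) overlapped.

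Over the 4 groups, the moderated F of limma placed *Smad3* 547th, *Tgfbr1* 824th, and *Ski* 1292nd of the 13733 genes. Among the 10288 genes averaging 1 FPKM or more, the pattern most like that of *Smad3* over the 12 libraries was that of *Jak2* (Pearson r 0.990), which encodes a cytokine receptor kinase, followed by *Exoc4* (r 0.985), which encodes a subunit of the exocyst. The genes most like *Tgfbr1* were *Srrt* (r 0.989) and *Tnfsf10* (r 0.987), the latter encoding the death ligand TRAIL, which lay at 10.1 to 11.3 FPKM without EpA and at 6.01 to 6.84 FPKM with it. Those most like *Ski* were *Ikbke* (r 0.979), a kinase gene, and *Tnfsf4* (r 0.978), encoding OX40L, at 13.4 to 19.4 FPKM with fatostatin and 5.49 to 7.42 FPKM without it. The libraries share groups and depth, so these correlations describe the pattern of 4 groups and carry no test.

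Around the 10 genes, 101 other genes of the pathway were listed by role, 71 of them in signaling and 30 among its response and output genes, and 91 were tested. Of the 64 signaling genes tested, 10 were higher and 14 lower with EpA against DMSO, and 8 were higher and 6 lower with fatostatin against DMSO. With fatostatin added to EpA 8 were higher and 4 lower, and with EpA added to fatostatin 16 were higher and 10 lower. In the same order, 27.4%, 14.0%, 16.0%, and 29.5% of all genes passed in either direction. Their median log2 changes were between -0.00042 and 0.041 in these comparisons, and 0.0023 to 0.015 over all genes. None of the signaling genes reached a 1.5-fold change with EpA against DMSO, where 3.38% of all genes did so past the threshold. Past it, 1 was higher by that much with fatostatin against DMSO and 1 with fatostatin added to EpA. With EpA added to fatostatin, 1 was lower. Of all genes, 1.86%, 1.99%, and 3.75% reached this in either direction in these 3 comparisons.

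Among genes for other TGF-β isoforms and for storing and freeing the ligand, 8 of 11 were tested. With EpA against DMSO 1 was higher and 2 were lower, where 14.3% and 13.1% of all genes were: the higher was *Furin*, which encodes the protease that cuts the TGF-β precursor, and the lower were *Lrrc32* and *Thbs1*, which encode the surface anchor GARP and the latent TGF-β activator thrombospondin 1. *Furin* had 11.1, 10.5, and 11.1 FPKM in DMSO and 13.0, 13.1, and 12.7 FPKM in EpA libraries, a change of 0.24 on the log2 scale (SE 0.0295, limma adjusted p = 0.000106). *Thbs1* had 3.12, 3.56, and 3.38 FPKM and 2.24, 2.22, and 2.57 FPKM, a fall by 0.50 (SE 0.0816, adjusted p = 0.000889). For both genes the EpA and DMSO libraries did not overlap. *Lrrc32* fell by 0.24 (adjusted p = 0.0438), a call lost in 9 of the 12 fits without 1 library, namely any DMSO or EpA+fato replicate, EpA replicate 2 or 3, or DMSO+fato replicate 3 (adjusted p 0.0550 to 0.143), and its change was -0.146 without EpA replicate 2. With fatostatin against DMSO, 0 of the 8 passed in limma, where 14.0% of all genes did.

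Of the other receptors of the superfamily, 9 of 10 were tested, and *Bmpr1b* had 0 reads in all libraries. *Tgfbr3*, encoding the coreceptor betaglycan, was the highest at 30.4 to 33.6 FPKM, and it passed in none of the comparisons. *Eng*, encoding the coreceptor endoglin, rose with each compound, with means of 1.44 ± 0.128 FPKM in DMSO, 2.07 ± 0.182 FPKM in EpA, 3.08 ± 0.0677 FPKM in fatostatin, and 4.53 ± 0.247 FPKM in libraries with both (SD, n = 3 each). The change was 0.50 with EpA (SE 0.0776, limma adjusted p = 0.000649) and 1.05 with fatostatin (SE 0.0776, adjusted p = 4.83e-06). Endothelial cells and macrophages also carry endoglin, and the summed level of the 5 macrophage and monocyte markers was 0.0533 to 0.153 FPKM in DMSO, 0.213 to 0.352 FPKM in EpA, 0.216 to 0.340 FPKM in fatostatin, and 0.378 to 0.575 FPKM in libraries with both compounds, with *Csf1r* at or below 0.0465 FPKM in every library. The sum rose through *Lyz2* (0 to 0.0699 FPKM in DMSO, 0.185 to 0.250 FPKM with both compounds) and *Cd14* (0 to 0.0315 and 0.109 to 0.197 FPKM). *Csf1r*, *Adgre1*, and *Itgam* overlapped between these groups, *Itgam* at 0.0146 to 0.0707 and 0.00468 to 0.0192 FPKM. These levels rest on few reads, as 1 read on 1 kb was worth 0.0225 to 0.0273 FPKM. The part of endothelial cells and macrophages in the rise of *Eng* was not tested. *Acvrl1*, a type I receptor gene, and *Acvr2a*, a type II receptor gene for activins, fell with EpA by 0.47 (adjusted p = 1.02e-05) and 0.41 (adjusted p = 0.00178), and with fatostatin by 0.18 (adjusted p = 0.0150) and 0.37 (adjusted p = 0.00588). The call of *Acvrl1* with fatostatin was lost without DMSO replicate 3 or DMSO+fato replicate 2 (adjusted p 0.0619 and 0.0610). *Bmpr1a*, a BMP receptor gene, rose with EpA by 0.22 (adjusted p = 0.00247). The genes of these 2 lists that are named for a change, except *Eng*, were chosen after their values were seen.

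**Figure D4:**
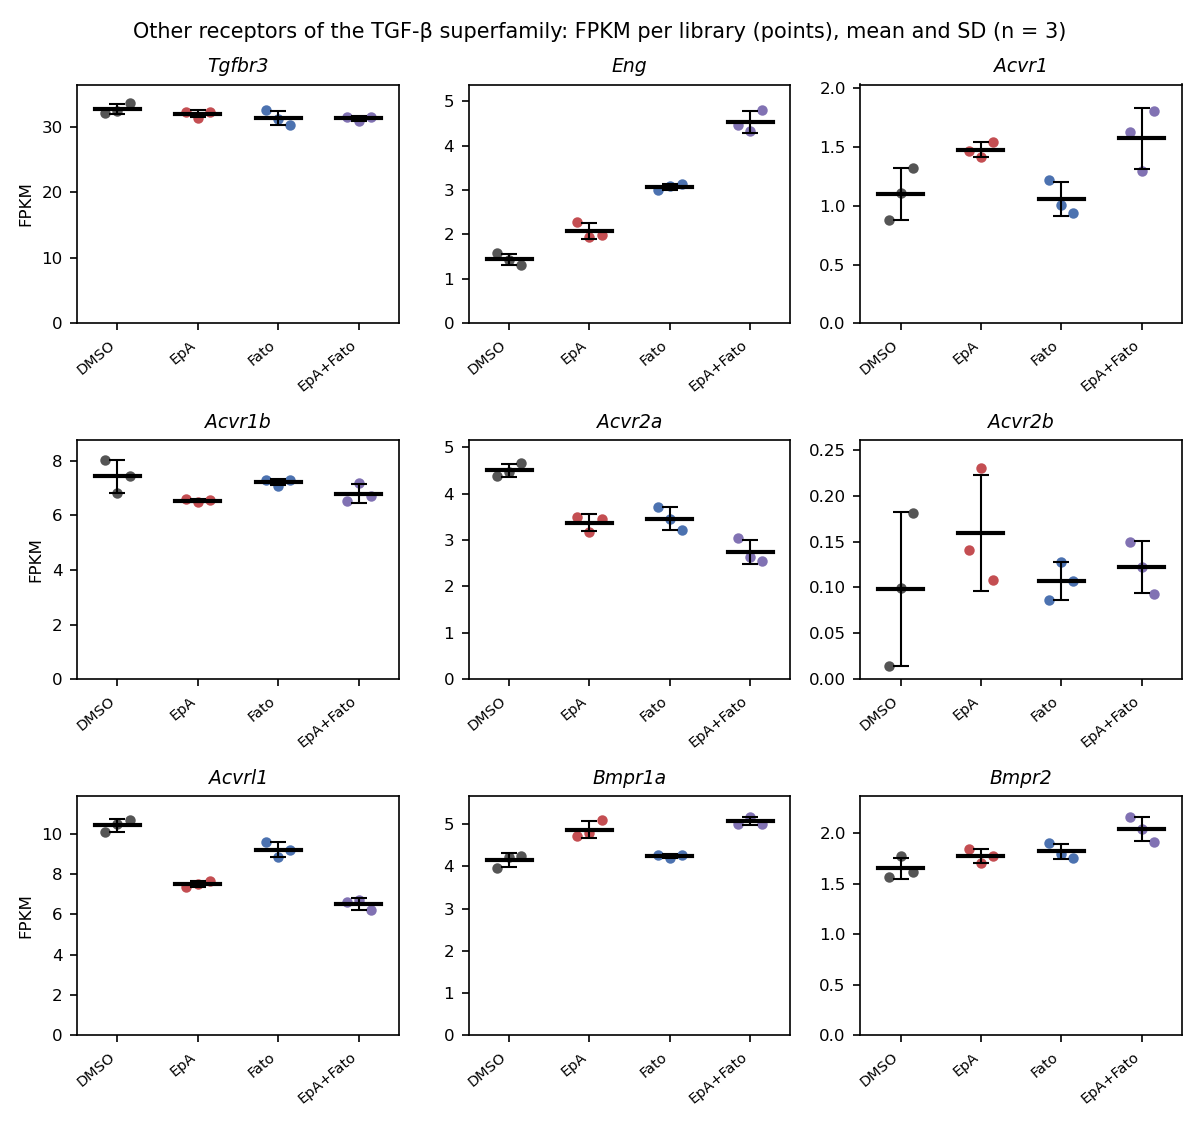
Level in FPKM (vertical axes, each starting at 0) of the 9 other receptor genes of the TGF-β superfamily that were tested, in the 4 groups, with 1 point per library and lines for the mean and SD of 3. *Eng* is higher with each compound (1.44 FPKM in DMSO and 4.53 FPKM with both on average), *Acvrl1* and *Acvr2a* are lower, and *Tgfbr3* stays at 30.4 to 33.6 FPKM.

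Among the other SMAD genes, *Smad1* and *Smad5* encode the SMAD proteins of BMP signaling and *Smad6* their inhibitor. *Smad5* rose with fatostatin, from 3.05, 3.22, and 3.03 FPKM in DMSO to 4.12, 3.74, and 3.53 FPKM, a log2 change of 0.28 (SE 0.0641, limma adjusted p = 0.0127), and by 0.30 in the presence of EpA (SE 0.0641, adjusted p = 0.00883). *Smad1* (1.91 to 2.65 FPKM) passed nowhere. *Smad6*, at 0.0511 to 0.270 FPKM or 6 to 36 reads, was measured with low precision and passed for both compounds against DMSO (0.65, SE 0.224, adjusted p = 0.0428), a call lost without DMSO replicate 1, EpA+fato replicate 2 or 3, or any EpA or DMSO+fato replicate (adjusted p 0.0541 to 0.150), and its change was 0.40 without DMSO replicate 1. The size of this change depended on the pseudocount, being 0.14 with 1 FPKM (adjusted p = 0.0399) and 1.05 with 0.01 FPKM (adjusted p = 0.0534), and the call was also lost with only the compared groups (adjusted p = 0.116). In the arms of TGF-β signaling that do not use SMADs, with 7 genes tested, *Tab1* and *Mapk14*, encoding a TAK1 partner and the kinase p38α, fell with EpA by 0.29 (limma adjusted p = 0.000159) and 0.17 (adjusted p = 0.000909), and *Traf6*, encoding a ubiquitin ligase, rose by 0.18 (adjusted p = 0.00563). *Map3k7*, encoding TAK1 itself, rose with fatostatin by 0.14 (adjusted p = 0.00735). *Tab2*, *Rhoa*, and *Rock1* passed for neither compound against DMSO, with changes of -0.06 to 0.07.

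Of 24 TGF-β response genes tested, 10 were higher and 8 lower with EpA against DMSO, and 4 were higher and 8 lower with fatostatin, where 14.3% and 13.1% of all genes were higher and lower with EpA and 7.69% and 6.31% with fatostatin. The list was written with earlier results of these data known. *Itgae*, encoding the αE chain of CD103, a surface integrin induced by TGF-β in T cells, measured 20.0, 20.1, and 20.0 FPKM in DMSO and 8.48, 8.62, and 8.50 FPKM in EpA libraries, and 12.1, 12.8, and 12.1 FPKM with fatostatin and 5.55, 5.73, and 5.53 FPKM with both. The 4 groups did not overlap, and it fell by 1.22 with EpA (SE 0.0289, limma adjusted p = 4.36e-10) and by 0.69 with fatostatin (SE 0.0289, adjusted p = 4.36e-08). CD103 is also carried by CD8+ and regulatory T cells. Of the 2 CD8 markers, *Cd8a* was at 1.60 to 1.94 FPKM in DMSO, 0.766 to 0.829 FPKM in EpA, 1.44 to 1.60 FPKM in fatostatin, and 0.430 to 0.577 FPKM in libraries with both compounds. The other and higher marker, *Cd8b1*, overlapped in all groups, at 7.11 to 7.90, 7.02 to 7.80, 7.11 to 8.61, and 6.40 to 8.17 FPKM in that order. The sum of both was at 8.71 to 9.79, 7.85 to 8.57, 8.55 to 10.2, and 6.98 to 8.60 FPKM. *Foxp3*, the regulatory T cell marker and itself a gene of this list, was at 1.78 to 1.93, 1.01 to 1.32, 1.53 to 1.89, and 0.970 to 1.07 FPKM in the same order. The part of these cells in the fall of *Itgae* was not tested. *Id3*, encoding an inhibitor of E proteins, fell by 0.99 with EpA (SE 0.0416, adjusted p = 3.49e-08) and by 0.42 with fatostatin (SE 0.0416, adjusted p = 4.55e-05).

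*Cdkn1a*, encoding the cell cycle inhibitor p21, rose 1.99-fold with either compound, from 26.0, 26.3, and 26.3 FPKM in DMSO to 52.3, 52.4, and 52.0 FPKM with EpA and 50.9, 52.5, and 53.3 FPKM with fatostatin, and reached 85.0, 87.3, and 89.5 FPKM with both. *Rgs16*, a regulator of G protein signaling, and *P2rx7*, encoding an ATP-gated channel, fell with EpA by 0.66 (adjusted p = 0.00271) and 0.51 (adjusted p = 1.13e-05) and rose with fatostatin by 0.62 (adjusted p = 0.00788) and 0.61 (adjusted p = 5.76e-06). *Gpr15*, encoding a homing receptor, rose by 0.56 with EpA (SE 0.143, adjusted p = 0.0137) and fell by 2.45 with fatostatin (SE 0.143, adjusted p = 5.93e-07), from 6.10, 6.62, and 6.99 FPKM in DMSO to 1.06, 1.09, and 1.21 FPKM. The rise of *Gpr15* with EpA was lost without DMSO replicate 1 (adjusted p = 0.0512). Genes known to respond to TGF-β thus moved in both directions under each compound, while the 10 core genes changed by less than 1.5-fold.

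**Figure D5:**
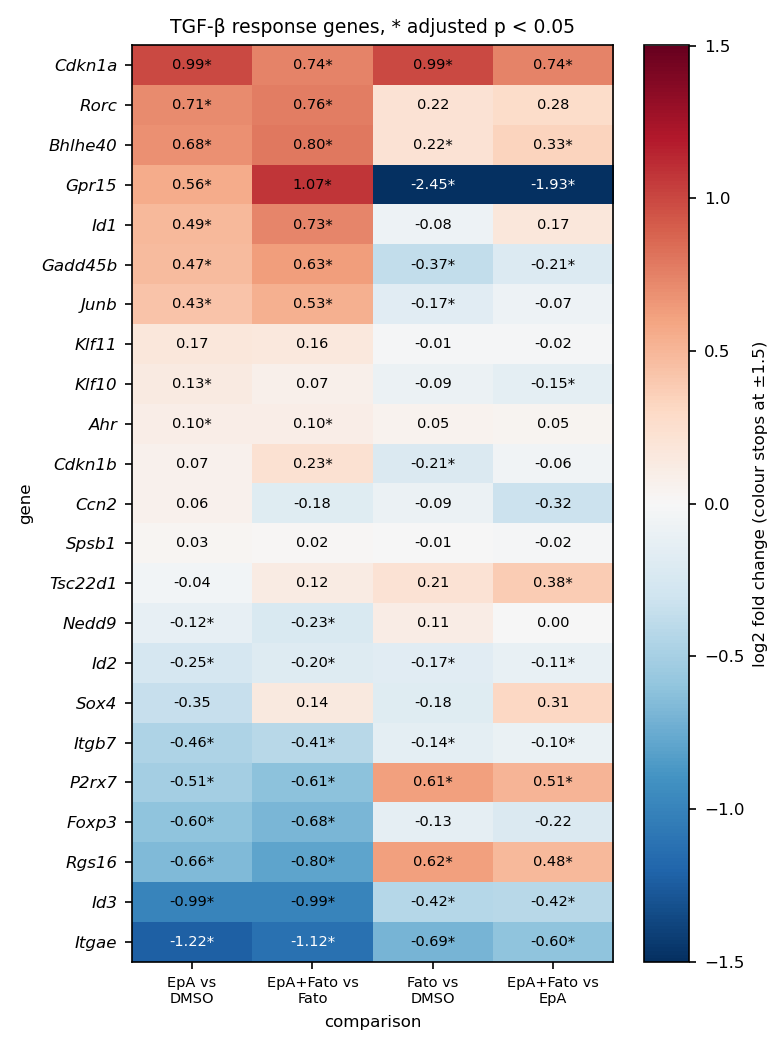
Log2 fold changes of 23 of the 24 TGF-β response genes tested (rows), sorted by the change with EpA, in 4 comparisons (columns). Color and printed values give the log2 fold change and an asterisk an adjusted p below 0.05. *Cdkn1a* is higher in all 4 columns, *Itgae* and *Id3* are lower in all 4, and *Gpr15*, *Rgs16*, and *P2rx7* have opposite signs with EpA and with fatostatin.

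Of the lineage genes that IL-4 and TGF-β control together, *Il9*, encoding the cytokine that names the lineage, measured 51.0, 57.7, and 55.1 FPKM in DMSO and 67.9, 60.7, and 70.8 FPKM with fatostatin. It was at 620, 652, and 648 FPKM with EpA and 805, 802, and 855 FPKM with both compounds. Against DMSO, *Il9* rose by 3.55 on the log2 scale with EpA (SE 0.0566, limma adjusted p = 2.18e-11), whereas the changes of the 10 core genes in the same comparison lay between -0.29 and 0.15. *Irf4* and *Gata3*, transcription factor genes of the lineage, each fell by 0.12 with EpA (adjusted p = 0.00185 and 0.0440), and *Gata3* rose by 0.15 with fatostatin (adjusted p = 0.0252). The *Gata3* calls were lost without any of several libraries, that for EpA without DMSO replicate 1 or 3, any EpA replicate, DMSO+fato replicate 3, or EpA+fato replicate 2 or 3 (adjusted p 0.0503 to 0.162), and that for fatostatin without DMSO replicate 1 or 2 or DMSO+fato replicate 2 or 3 (adjusted p 0.0598 to 0.0920).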

How the data were processed

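RNA-seq was available for 12 libraries of mouse Th9 cells, 3 in each of 4 groups. Paired reads were trimmed by the authors (Trim Galore) and mapped with HISAT2 on the GRCm38 genome, featureCounts gave reads per gene, and the deposited values are FPKM, scaled by gene length and library size. The annotation release and the strand setting of the counting are not given in the sources used here. The table held 32352 lines for 32051 genes, the 301 repeated lines carried identical values, and 0 columns belonged to no sample. With exon lengths of a GRCm38 annotation, 98.4% to 98.6% of each library's values corresponded to whole reads (tolerance 0.05 read), 36607303 to 44375791 per library, and 1 read on 1 kb was worth 0.0225 to 0.0273 FPKM. No confidence interval from counting is given, since the spread between libraries already contains counting error.

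Genes averaging 0.1 FPKM or more over the libraries were tested on log2(FPKM + 0.1) with limma 3.58.1 in R 4.3.3. All 4 group means were fitted at once, with variances moderated toward a trend on intensity. Fold changes are on that scale, which understates those of low genes. p-values are two-sided and adjusted by the Benjamini-Hochberg method over all genes tested, and a gene passed at an adjusted p below 0.05. The study's fold threshold of 1.5 was applied beside it. An exact permutation test of 3 libraries against 3 cannot give a p below 0.1. The 6 comparisons share libraries. On simulated data for EpA against DMSO, 190 of 200 changed genes were called among 13625 tested, with 12 unchanged ones, and 0 were called in unchanged data. The planted log2 changes were 0.585 or 1 in size, with the same spread setting for every gene. No core gene changed by 0.585 in any comparison, so recovery of changes as small as theirs was not simulated.

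The 10 genes and the 8 lists of other pathway genes were chosen with earlier results of these data known, so that no p adjusted over a list is given. Other genes were named where they had up to the 3 largest changes in a direction past the threshold, an average of 1 FPKM or more, and groups that did not overlap, where their list had at most 8 genes, or, as stated, after their values were seen. Of the genes counted in the lists, 2 are not reported here by name. Alternatives changed the pseudocount, the filter, the scaling, the trend, the groups in the fit, the replicate numbers, and the libraries, or used voom of limma on the recovered reads, which called 2079 genes higher and 1982 lower for EpA against DMSO. Promoter windows and their motif counts are from RefSeq sequences of GRCm38.p6, and values are plotted with matplotlib 3.10.9.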

Additional observations from a re-analysis of the deposited data

Results flagged for a closer look

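Among the 10 core genes and the 91 other pathway genes tested, the difference between the EpA effects with and without fatostatin passed for 1 gene. *Cdkn1a* rose by 0.99 on the log2 scale with EpA alone and by 0.74 with EpA in the presence of fatostatin, a difference of -0.254 (SE 0.0315, limma adjusted p = 0.0372). Its level was higher in all 6 libraries with EpA than in the 3 libraries of the matching group without it. The call was lost without any 1 library other than DMSO+fato replicate 1, with an adjusted p of 0.0503 to 0.147, while the value stayed between -0.273 and -0.236. The mean levels were 26.2 ± 0.175 FPKM in DMSO, 52.2 ± 0.198 FPKM in EpA, 52.2 ± 1.20 FPKM in fatostatin, and 87.3 ± 2.23 FPKM in libraries with both compounds (SD, n = 3 each).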

How the results depend on the processing

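Of 74 single results past the threshold, 714 of 738 values under the other settings kept their direction and side of it, and 24 kept the direction but not the call. With 1 library left out, this was so for 811 of 888, and 77 lost the call. None of these called values changed direction. The 74 include genes named for large changes past the threshold, whose calls were likely to hold. The tally therefore does not measure how steady the calls of the 10 core genes were. For the 10 core genes, the number past the threshold for EpA against DMSO was 5, and it was 2 with no filter, 1 with no intensity trend, 3 with only the compared groups, and 1 to 5 with 1 library left out, and it was 6 with the replicate block and with voom, where *Tgfbr2* passed as well (adjusted p = 0.0439 and 0.0445). For fatostatin against DMSO it was 4, and 2 to 4 with 1 library left out. For both compounds against fatostatin it was 2, and 1 with only the compared groups or with 1 library left out (range 1 to 2). For both compounds against DMSO it was 5, and 6 with voom, where *Smad2* passed (adjusted p = 0.0453). The 1 pathway gene past the threshold for the difference between the EpA effects became 0 with no intensity trend, 0 with a replicate block, 2 with voom, and 0 to 1 with 1 library left out. The cause of these moves was not tested. More genes were tested with no filter, and fewer samples were fitted with libraries left out.

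Signs turned only for values near 0. The *Ski* difference between the EpA effects was -0.00366 under median-ratio scaling (0.00291 as reported), and the *Map3k7* change with EpA was -0.00234 under that scaling and -0.00141 with voom. Without 1 library, the fatostatin changes of *Tgfbr1* (-0.0106 to 0.0555), *Smad7* (-0.0730 to 0.00114), and *Smurf2* (-0.0467 to 0.00725), the change of *Tgfbr1* for both compounds against EpA (-0.00260 to 0.0371), those of *Smad3* (-0.0324 to 0.0499) and *Smad7* (-0.0554 to 0.00756) for both against fatostatin, and the differences of *Tgfbr1* (-0.0376 to 0.0285), *Tgfbr2* (-0.0214 to 0.0522), and *Ski* (-0.0104 to 0.0149) crossed 0. So did the EpA changes of *Smad1* (-0.00126 to 0.131), *Map3k7* (-0.0153 to 0.0176), *Tab2* (-0.0267 to 0.00235), and *Rock1* (-6.1e-06 to 0.0418), and the fatostatin changes of *Smad1* (-0.105 to 0.0505) and *Furin* (-0.00758 to 0.0298). The median log2 change of all genes was at most 0.0257 under any scaling.

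Replicate numbers are shared between groups in the labels, and no strong pairing by number was seen. The 18 pairs with the same number had correlations of -0.0472 to 0.0744 between deviations from the group means, 0 of them over 0.1. The 36 other pairs had -0.0859 to 0.0492, and 7 of 12 libraries correlated best with their own number. Such correlations cannot exclude a shared mouse or culture. With the replicate block, the number of all genes past the threshold went from 3759 to 3660 for EpA against DMSO and from 1922 to 1810 for fatostatin against DMSO. Besides *Tgfbr2* for EpA, *Traf6* passed for fatostatin (adjusted p = 0.0465), and *Cdkn1a* did not pass for the difference (adjusted p = 0.0638), and no other single result changed its call. Of the 6 genes past the threshold for the difference, 83.3% were higher, against 0% of 1 under TPM scaling, and there were 0 with the replicate block and 15 higher and 5 lower with voom.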
